A study of Mus musculus with 12 samples.

Results

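miR-140 is a microRNA (miRNA) whose hairpin precursor gives small RNAs from both of its arms, the 5′ arm (5p) and the 3′ arm (3p). Its members here are the tags, that is, the distinct insert sequences of the small RNA libraries, that matched the annotated mouse Mir140 hairpin exactly over their full length. They were 40 tags over the 12 libraries, with 22 to 32 of the 213969 to 2897839 distinct tags of a library, and held 427614 counts, or 1.42% of the 30041102 counts on all annotated miRNA hairpins and 0.604% of the 70809892 accepted reads. miR-140 was selected on values measured in these libraries, its abundance and the counts of its tags by arm, start and length. Its levels and starts over all libraries are therefore descriptions with no test, and the tests between groups rest on the same counts and are not independent of that choice. No member matched another annotated hairpin, and no count matched the opposite strand of the Mir140 hairpin.

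The libraries were made from the hippocampus of individual adult male mice of strain C57BL/6NCrl, for which the labels name no engineered allele or drug. Untreated mice (NT) were compared with mice sampled 0.5, 1, 3, 6 or 24 h after ECS (electroconvulsive shock, which evokes a seizure and so fires neurons across the brain), to follow miRNA expression after neuronal activity. Each of the 6 groups held 2 libraries, 1 from the first time course (NT-1, 0.5h-1 and so on) and 1 from the second (NT-2 and so on). Accepted reads ranged from 1897490 (6h-2) to 7657222 (0.5h-2) per library, and counts on miRNA hairpins from 439734 (6h-1) to 4284186 (NT-2).

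As background, a miRNA hairpin is released from its primary transcript by Drosha, and Dicer then cuts off the loop, so Dicer sets the first base of a 3p strand. Bases 2 to 8 of the strand, its seed, choose its target mRNAs, so a strand that starts 1 base earlier or later has another seed. Such strands with shifted ends are called isomiRs. miR-140 is best known from cartilage, and its host gene Wwp2 encodes a ubiquitin ligase.

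In the RefSeq annotation of GRCm38.p6 the hairpin is 70 nt long and lies on the plus strand at chr8:107551244-107551313. It is inside Wwp2 (chr8:107436365-107558595, plus strand), in intron 16 of the 24-exon transcript Wwp2-201 of GENCODE. Of the 11 annotated Wwp2 transcripts, 3 held the hairpin in an intron, and 1, a transcript annotated as a retained intron, held it in its exon. The hairpin is shown with the most abundant 5p tag (positions 6 to 26) and 3p tag (positions 46 to 66) in capitals.
Mir140 hairpin: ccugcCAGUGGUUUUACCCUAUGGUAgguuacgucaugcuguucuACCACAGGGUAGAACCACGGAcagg

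The folding program RNAfold placed the end loop at positions 35 to 37 of this hairpin and paired 20 of the 22 positions from 45 to 66, with a free energy of -39.1 kcal/mol. In that fold position 45 paired with position 26, the last base of the main 5p tag, and position 46 with position 25.

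The 3p arm held 427472 counts on 31 tags, the 5p arm 112 counts on 4 tags, and the loop between them 30 counts on 5 tags. Positions 45, 46 and 47 were the starts of nearly all 3p counts. The most abundant tag of each start is shown beside the annotated 3p strand of RefSeq, with the seed in capitals, since the seeds are what the starts change.
annotated miR-140-3p, positions 45 to 65: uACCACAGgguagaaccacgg
main start, positions 46 to 66: aCCACAGGgtagaaccacgga
upstream start, positions 45 to 67: tACCACAGggtagaaccacggac
downstream start, positions 47 to 66: cCACAGGGtagaaccacgga
5p arm, positions 6 to 26: cAGTGGTTttaccctatggta

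The main start at position 46, 1 nt downstream of the annotated one, held 344571 counts, or 80.6% of the 3p arm. The annotated start at position 45 held 68316 counts (16.0%) and position 47 held 13705 counts (3.21%). Positions 48 and 49 held 697 and 175 counts, positions 44 and 50 held 6 and 2. The seed of most hippocampal miR-140-3p reads in these libraries was thus CCACAGG, where the annotated strand carries ACCACAG.

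Among the 1738 mature mouse sequences of the RefSeq table, no other miRNA had the seed of the main start or that of position 47. The seed of position 45 was shared with miR-497b, whose hairpin had 0 counts in the 12 libraries. The seed of the 5p arm was shared with miR-876-3p, whose hairpin had 101 counts, none of them at the annotated start of miR-876-3p. The sequences are shown to make the shared seeds visible.
miR-497b: cACCACAGugugguuuggacgugg
miR-876-3p: uAGUGGUUuacaaaguaauuca

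The 10 most abundant tags held 98.6% of the 3p counts. The leading tag (positions 46 to 66, 21 nt, chr8:107551289-107551309) held 217137 counts, or 50.8% of the arm. It was followed by the same start ending 1 base earlier (20 nt, 77460 counts) and 1 base later (22 nt, 41079 counts). The tag identical to the annotated 3p strand (chr8:107551288-107551308) held 9016 counts, or 2.11%, and ranked 8 among all 40 tags. Of these tags 16 were present in all 12 libraries.

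Every 5p tag started at position 6. The 5p counts per library were 14, 19, 17, 4, 9 and 12 in the first time course, from NT-1 to 24h-1, and 13, 9, 1, 5, 5 and 4 in the second, from NT-2 to 24h-2. The 5p strand was thus a very small part of miR-140 in every library. It made up between 0.00239% (1h-2) and 0.0589% (0.5h-1) of the miR-140 counts. With 1 to 19 counts a library, the Wilson 95% intervals of these shares were wide, from 0.000423% to 0.0136% in 1h-2 and from 0.0377% to 0.0920% in 0.5h-1. PCR copies were not marked with molecular identifiers, so these and all other intervals cover counting error only.

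The start of the 3p strand differed between the time courses. In the first, position 45 held 2.92% of the 3p counts in NT-1, 2.14% in 0.5h-1, 4.63% in 1h-1, 4.84% in 3h-1, 0.795% in 6h-1 and 2.13% in 24h-1. In the second, it held 26.5% in NT-2, 53.3% in 0.5h-2, 38.01% in 1h-2, 20.2% in 3h-2, 3.20% in 6h-2 and 18.2% in 24h-2. The second time course was higher at 6 of 6 time points, and its 6 h library alone lay within the range of the first. In 0.5h-2 the annotated start outnumbered the main one (Wilson 95% interval of its share, 52.7% to 53.8%). The 6 h library had the smallest share in both time courses.

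**Figure D1:**
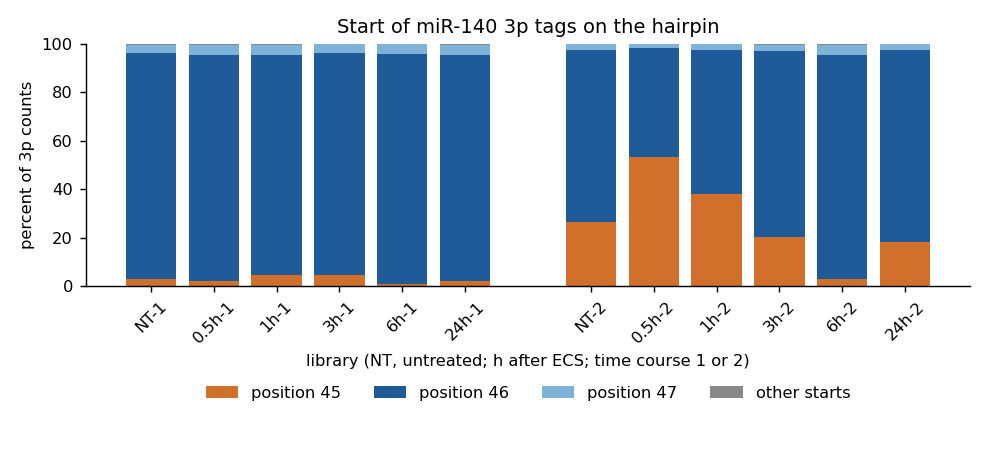
Percent of miR-140 3p counts (vertical axis) by the hairpin position of the first base (colours) in each of the 12 libraries (horizontal axis), with the first time course on the left. Position 45 takes between 0.795% and 4.84% in the first time course and between 3.20% and 53.3% in the second.

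The mean share at position 45 was 2.91% in the first (SD 1.57, n = 6) and 26.6% in the second time course (SD 17.3, n = 6), 23.6 percentage points apart. Without the untreated pair the difference was 23.7 points. An exact permutation test over the 64 flips of libraries within time points gave p = 0.03125 (two-sided), the smallest p this design allows. After Benjamini-Hochberg adjustment over the 6 shares tested within miR-140 the exact test gave p = 0.0625, which does not pass 0.05. The share of the main start was 92.9% ± 1.55 (SD, n = 6) against 70.7% ± 16.5 (SD, n = 6), and the second was the lower one at each of the 6 times, with the same raw and adjusted p in the exact test. The p-values rest on 6 differences between the same pair of time courses, so they do not measure the spread between time courses. Time course, mouse, library preparation and sequencing cannot be told apart.

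In counts fitted over all arm-and-start features with edgeR's quasi-likelihood test, the 3 starts did not move together. Of the 862 features tested, 303 were called between the time courses at an adjusted p under 0.05 (35.2%), 168 higher and 135 lower in the second. Position 45 was higher in the second by 1.94 on the log2 scale (SE 0.60, edgeR adjusted p = 0.0233). Position 46 fell by 1.51 (SE 0.44, edgeR adjusted p = 0.0181) and position 47 fell by 1.79 (SE 0.46, edgeR adjusted p = 0.0102). Position 49 fell by 1.75 (edgeR adjusted p = 0.0309), the 5p start at position 6 fell by 1.84 (edgeR adjusted p = 0.0336), and position 48, with a log2 change of -1.19, did not pass the test (edgeR adjusted p = 0.133). Of the 6 features of miR-140 that were tested, 5 were thus called, beside a background of 35.2%. The call at position 45 was lost when only total miRNA counts set the scaling (log2 change 1.30, edgeR adjusted p = 0.0851) and in 8 of 12 fits that left out 1 library (edgeR adjusted p up to 0.0847). It held in those without 3h-1, 6h-1, 3h-2 or 6h-2. Without NT-1 the log2 change was 1.55 (edgeR adjusted p = 0.0776).

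The study reports a strong batch effect between its time courses and could not tell library construction from sequencing as its source. It considered accurate changes in miRNA level unlikely to be obtained from these reads. The part of these steps in the differences given here was not tested. All libraries of a mouse brain region also hold many cell types. A lower count of a miRNA can thus come from fewer cells that make it or from less of it in each cell, which cannot be told apart in bulk tissue. The shares within the 3p arm compare counts of the same arm and do not use library scaling.

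Some other miRNA arms showed a smaller rise of the upstream start, but most did not, and some arms shifted their starts in other ways. Of all arms, 111 reached 100 counts in each of the 12 libraries. Among them the median share of the main start was 98.3%, and miR-140-3p (81.8%) was 25th from the lowest. Between the time courses, this share fell more in miR-341-3p (83.1% to 55.4%) than in miR-140-3p, which ranked 2 by that fall. It rose in miR-137-3p (56.0% to 84.4%), miR-9-3p (32.8% to 54.7%) and miR-101a-3p (44.0% to 63.2%). In miR-132-5p the share 1 nt upstream fell from 44.2% to 25.2%. These arms were named after their values were seen. The share 1 nt upstream of the main start was higher in the second time course at all 6 times in 11 of the 111 arms (9.91%), miR-140-3p among them. Its rise of 23.6 points was the largest of the 111, beside a median change of 0.0015 points, and 3 other arms rose by over 10 points.

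**Figure D2:**
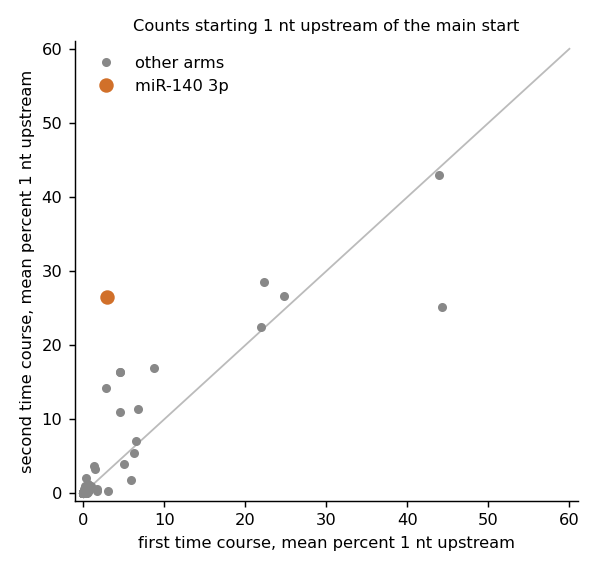
Mean percent of an arm's counts that start 1 nt upstream of its main start, in the first (horizontal axis) and second (vertical axis) time course, with 1 point for each of 111 miRNA arms and a line of equal shares. miR-140-3p lies at 2.91% and 26.6%.

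Those 3, chosen after their values were seen, were miR-199a-3p and miR-199b-3p, which share their mature sequence, with a rise from 4.58% to 16.3%, and miR-323-3p, with a rise from 2.81% to 14.2%. Of the miRNAs known for more than 1 start, miR-101a-3p had 53.6% of its counts at its main start and 46.3% 1 nt downstream, and miR-411-5p 50.5% and 48.0%. miR-124-3p had 83.1% at its main start, 9.07% 1 nt upstream and 7.71% 1 nt downstream. The 3p arms of miR-126, miR-133a, miR-142 and miR-203 and the 5p arm of miR-183 had under 100 counts in at least 1 library and were not compared.

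The 3′ end of the 3p strand also differed. Position 66 was its most frequent end in 11 of the 12 libraries, with shares between 39.5% and 76.6%. In NT-1 it held 11.3% and position 65 held 84.8%, so that 88.0% of its 3p counts were 20 nt long, against 10.5% to 29.2% in the other 11 libraries. NT-1 stood apart beyond miR-140, since 51.5% of its counts on all miRNA hairpins were tags of 18 or 19 nt, against 0.915% to 16.996% in the other 11. By time course, these short tags made up 4.55% to 51.5% of all miRNA counts in the first and 0.915% to 3.79% in the second. A difference in tag length between the time courses was thus not particular to miR-140.

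Ends at positions 67 and 68 together ranged from 0.603% to 13.6% of the 3p counts in the first time course and from 19.1% to 43.3% in the second, with no overlap. The 3′ ends of other arms were not counted, so whether these ends set miR-140 apart is not known. The mean length of the 3p tags was 20.1 to 20.9 nt in the first and 21.1 to 21.9 nt in the second. The share of the most frequent end did not pass the exact test (61.01% ± 24.6 against 52.4% ± 9.08, SD, n = 6 each, exact permutation p = 0.5), nor did the share of tags of 18 or 19 nt (exact permutation p = 0.09375). The first of these values was decided by NT-1: without the untreated pair, the share ending at 66 was 70.95% ± 3.66 in the first and 52.1% ± 10.1 in the second time course (SD, n = 5 each), lower in the second in 5 of 5 pairs and with no overlap (exact permutation p = 0.0625, two-sided, the smallest that 5 pairs allow).

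Start and end were related within each time course. In the first, tags from position 45 ended earlier than tags from position 46 in all 6 libraries, by 0.60 to 1.32 nt on average (mean end 64.8 against 65.7). The end with the highest mean share was position 64 (41.9%), a 20-nt tag, but positions 64, 65 and 66 each led in 2 of the 6 libraries. In the second, the mean ends were close (66.1 against 66.2), and the end of tags from position 45 with the highest mean share was position 67 (37.9%), a 23-nt tag, which led in 5 of the 6 libraries, while 66 led in 6h-2. The tag of positions 45 to 67 ranged from 0.00402% to 0.151% of the 3p counts in the first time course and from 0.400% to 21.1% in the second. This isomiR joins the annotated start with a 3′ end 1 base past that of the leading tag.

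**Figure D3:**
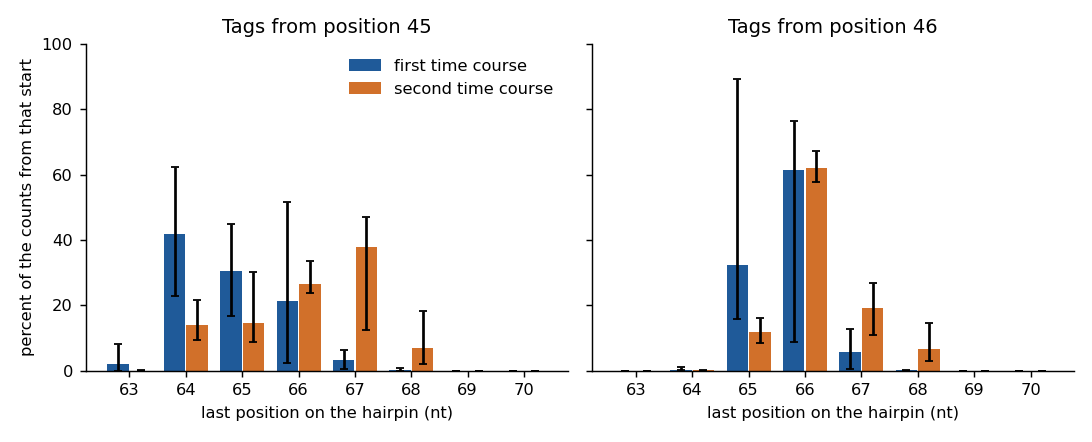
Percent of the counts from start position 45 (left) and 46 (right) that end at each hairpin position, as the mean of the 6 libraries of each time course with lines from the lowest to the highest library. By mean share, tags from position 45 lead at 64 in the first time course and at 67 in the second; single libraries of the first lead at 64, 65 or 66.

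Bases that the hairpin does not hold were found at the 3′ end. Tags that began with 18 nt of the hairpin, on either arm or the loop, but then left its sequence held 133491 counts on 3159 distinct tags. A single added A followed an exact stretch in 7.76% and a single added T in 6.75% of all counts that shared those first 18 nt. Together they ranged from 1.96% (NT-1) to 14.4% (0.5h-1) in the first time course and from 17.9% (6h-2) to 23.1% (0.5h-2) in the second, with no overlap. Added bases were not counted for other arms, so whether this difference is particular to miR-140 is not known. The means were 6.84% ± 5.45 (SD, n = 6) and 20.8% ± 1.74 (SD, n = 6), and at each of the 6 time points the second was the higher one (two-sided exact test of the flips, p = 0.03125, adjusted 0.0625).

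**Figure D4:**
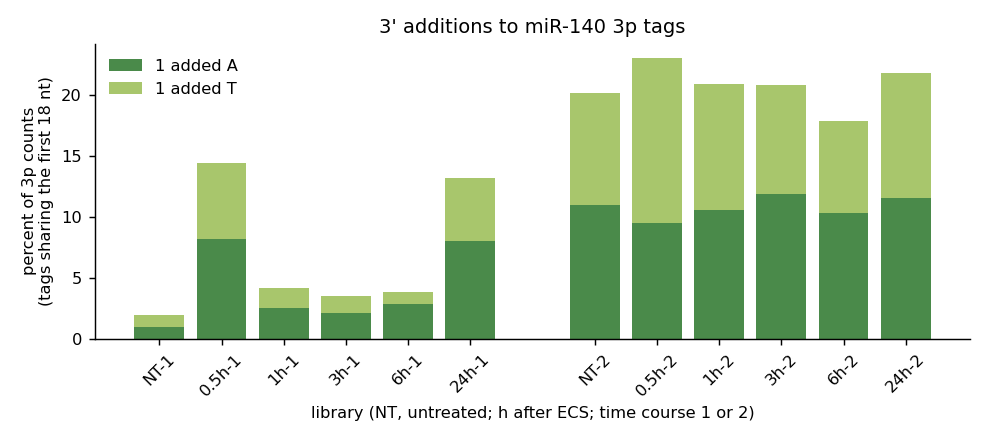
Percent of the 3p counts that share the first 18 nt of a miR-140-3p start and carry 1 added A or 1 added T (stacked bars, vertical axis) in each library (horizontal axis). In the first time course 0.5h-1 (14.4%) and 24h-1 stand above the other 4 libraries, and all 6 of the second lie above both.

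Positions 66 and 68 of the hairpin are A, so an A added to a strand ending at 65 or 67 cannot be told from the encoded base and is counted as exact. After position 66, an added A had 40155 counts and an added T 26049, beside 244251 counts of the unextended strands. Shares were taken of the counts with that added base plus the unextended counts of the same end, pooled over the libraries of a time course. After position 66 the added A made up 7.13% in the first and 21.99% in the second time course, and the added T 3.39% and 16.8%. The other ends did not all move this way: the T after 67 went from 1.99% to 10.2% and the T after 65 from 2.86% to 8.68%, whereas the A after 68 went from 30.05% to 15.4%, the T after 64 from 14.8% to 1.33% and the A after 64 from 13.5% to 1.14%. The leading extended tags are shown with the added base in capitals.
leading tag with 1 added A: accacagggtagaaccacggaA
leading tag with 1 added T: accacagggtagaaccacggaT

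The ECS libraries of the first time course held more of some tags with a substituted base near the 3′ end. Relative to the exact leading tag, and with positions counted from 1 at its 5′ end, the change G19C reached 2.72% to 4.11% in the 5 ECS libraries of the first time course. It was 0.0419% in NT-1, on 1 count beside 2386 of the exact leading tag. In the second time course G19C was 0.0554% to 0.304%. The change G20C was 2.08% to 2.91% in the 1, 3, 6 and 24 h libraries of the first time course, 0.207% in 0.5h-1 and 0.377% in NT-1. No cause of these tags was tested.

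The level of the 3p arm was lower in the second time course. In the first it held 2.70% of the miRNA counts in NT-1, 1.83% in 0.5h-1, 4.57% in 1h-1, 2.16% in 3h-1, 5.66% in 6h-1 and 1.87% in 24h-1. In the second it held 1.59% in NT-2, 0.788% in 0.5h-2, 1.06% in 1h-2, 0.684% in 3h-2, 0.680% in 6h-2 and 0.665% in 24h-2. The groups did not overlap, and the mean of the first (3.13% ± 1.60, SD, n = 6) was 3.44-fold that of the second (0.912% ± 0.364, SD, n = 6). How many other arms lacked overlap was not counted, so whether this is particular to miR-140 is not known. By counts, the 3p arm held ranks 6 to 13 among all arms of a library in the first time course and ranks 13 to 22 in the second.

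**Figure D5:**
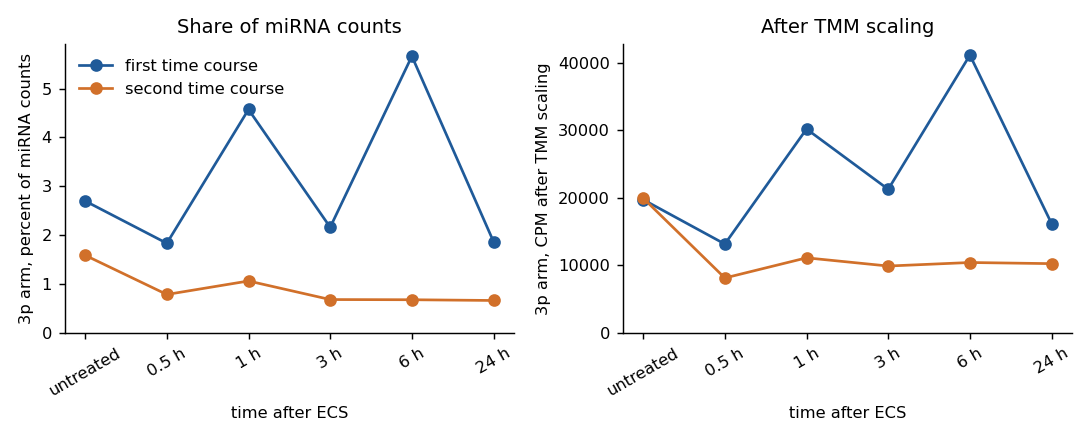
Level of the miR-140 3p arm by time after ECS (horizontal axis), as percent of miRNA counts (left) and as CPM after TMM scaling, a count scaled to library size (right), with 1 point a library and lines that join a time course. On the left all 6 libraries of the second time course, up to 1.59%, lie below all of the first, and on the right the 2 untreated libraries nearly coincide.

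Fitted over all arms with TMM scaling, the mean of the 3p arm in the second time course was lower by a log2 change of -0.98 (SE 0.39), which missed the threshold (edgeR adjusted p = 0.0596). Of the 506 arms tested, 190 were called (37.5%), 107 higher and 83 lower in the second. The 5p arm fell by 1.75 on the log2 scale (SE 0.63, edgeR adjusted p = 0.0420), on 1 to 19 counts a library, and its call was lost in 10 of 12 fits that left out 1 library (edgeR adjusted p up to 0.115), all but those without NT-1 or NT-2. With the total miRNA count as the scale the 3p arm passed (log2 change -1.71, edgeR adjusted p = 0.00443), and so it did without either untreated library or both (edgeR adjusted p = 0.0256 without NT-1). That scale changed the split of all calls from 107 higher and 83 lower to 50 higher and 142 lower. The median arm changed by 0.32 with TMM and by -0.41 with total counts, and relative to that median the 3p arm was at -1.29 under both.

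As percents of miRNA counts, marker lists of other cell types also differed between the time courses. With total miRNA counts as the scale, the median of the 506 arms tested changed by -0.41 on the log2 scale. How many of all arms were lower in the second at 6 of 6 times was not counted, so these differences are not particular readings of cell types. The vessel list (miR-143, miR-145, miR-126; 3 of 3 found) summed to 6.29% to 14.5% of the miRNA counts in the first time course and 0.564% to 1.65% in the second, nearly all of it miR-143. The blood cell list (5 of 5 found) summed to 0.133% to 1.15% and 0.0372% to 0.257%. The neuron list (miR-124, miR-9, miR-128; 3 of 3 found), which checks the tissue, summed to 12.3% to 30.3% and 5.82% to 16.4%. All 3 lists were lower in the second time course at each of the 6 times, but the sum of the blood cell list was mostly miR-142: in the second, miR-451a lay lower at 2 of the 6 times and miR-486 at 3. In the neuron and vessel lists, miR-124 and miR-126 were each higher in the second at 2 of 6 times and miR-128 at 1. By contrast, miR-9, miR-143 and miR-145 were lower in the second at 6 of 6. Of the defining blood markers, miR-451a lay at or below 0.0103% in all libraries and miR-223 had 19 counts in 8 libraries and none in 4. The muscle list (miR-1a, miR-133a, miR-206; 3 of 3 found) summed to 0.258% to 1.10% and 0.771% to 1.69%, higher in the second at 5 of 6. miR-455, named with miR-140 in cartilage, had 521 counts in all, so the cartilage list was miR-140 itself. The part of these cells in the level of miR-140 was not tested.

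The arms whose log2 percent of miRNA counts followed the 3p arm of miR-140 most closely over the 12 libraries, among 213 with at least 10 counts in each, were miR-125b-3p (Pearson r = 0.94), miR-381-5p (0.93), miR-322-3p (0.93), miR-145a-3p (0.92) and miR-1983-3p (0.91). The median r of the other arms was 0.41. These points share the step between the time courses and the closed sum of a percentage, and are a description. Within the first time course alone (6 libraries) the r of the 5 arms ranged from 0.72 to 0.93, and within the second (6 libraries) from 0.37 to 0.77.

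After ECS, no change of miR-140 passed the test. With edgeR the log2 change of the 3p arm against the untreated libraries was -0.90 at 0.5 h (SE 0.95), 0.06 at 1 h (SE 0.94), -0.35 at 3 h (SE 0.94), 0.38 at 6 h (SE 0.94) and -0.59 at 24 h (SE 0.95). The edgeR adjusted p was 0.99 or above at each of these times, which share the same 2 untreated libraries. Over all 506 arms 0 (0%) were called at each time, with 4 to 12 arms at an unadjusted p under 0.05. DESeq2 called 1 arm at 0.5 h and 2 at 3 h, none of them an arm of miR-140. Without NT-1 the log2 changes of the 3p arm ran from -0.48 at 0.5 h to 0.60 at 6 h, again with no call. In simulated data of this design edgeR recovered 0 of 189 arms changed 4- to 8-fold, so changes of that size can go uncalled here.

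The direction after ECS was not the same in both time courses. Within the first, the 3p share of miRNA counts was below NT-1 at 3 of 5 times, with ratios from 0.680 to 2.10, the highest at 6 h. Within the second, it was below NT-2 at 5 of 5 times, with ratios from 0.418 to 0.669. With 1 library a time in each course, this difference was not tested. With the time course as a replicate block the 3p arm was not called at any time either.

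The starts gave no call after ECS. Of the 862 arm-and-start features 0 (0%) were called at each time, with 6 to 35 at an unadjusted p under 0.05. DESeq2 called 3 of them, at 3 h, none of them position 45, 46 or 47 of miR-140. Position 45 at 6 h had the lowest unadjusted p of the miR-140 starts (log2 change -3.18, SE 1.47, edgeR unadjusted p = 0.0488, adjusted p = 0.996). That value depended on the untreated libraries: it was -4.02 without NT-1 (edgeR adjusted p = 0.998) and -0.80 without NT-2 (edgeR adjusted p = 0.959). Its share was 0.795% (Wilson 95% interval 0.692% to 0.914%) in 6h-1 and 3.20% (2.86% to 3.59%) in 6h-2, below NT-1 at 2.92% and NT-2 at 26.5%. 6h-1 had the lowest miRNA share of accepted reads (10.1%) and 6h-2 the fewest accepted reads, and the part of either in this value was not tested.

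None of the 6 shares within miR-140 passed the exact test of untreated against ECS libraries. The share at position 45 was 14.7% in both (difference -0.0507 points, exact permutation test over 36 choices, two-sided, p = 1). The difference furthest from that of the other choices was in the share ending at position 66, 32.5% in the untreated and 61.5% in the ECS libraries (exact permutation p = 0.111, adjusted 0.5), which rests on NT-1, with 11.3%, since NT-2, with 53.7%, lay within the range of the second ECS series (39.5% to 64.4%). Tags of 18 or 19 nt (exact permutation p = 0.167) and the share with an added A or T (exact permutation p = 0.417) did not pass.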

How the data were processed

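The authors deposited, for each of the 12 libraries, every distinct tag of at least 18 nt with its raw count after adapter removal by the miR-Intess pipeline, without normalization. RNA of about 18 to 24 nt was cut from gels, per the labels, and sequenced on an Illumina Genome Analyzer IIx, per the study's methods. A size cut and ligation can favour some ends and lengths over others, and exact matching leaves out reads with errors or added bases.

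Tags were matched to GENCODE M21 hairpins (GRCm38, 2202 hairpins, predicted ones included) over their full length, and arms were assigned by tag midpoint, so the 30 loop counts joined the 3p arm in the fits. Tags on several hairpins were split equally. Sequences and the 70-nt hairpin came from the RefSeq table (GRCm38.p6), which equals the GENCODE hairpin. It held no 5p entry. Arms, and arms by start (first 18 nt), reaching 10 counts in 2 or more libraries were tested with edgeR 4.0.16 in R 4.3.3 (quasi-likelihood, TMM, Benjamini-Hochberg over all features), each time against untreated and second against first time course with time point as covariate. DESeq2 1.42.0 was an alternative. On simulated counts the time course fit recovered 170 of 185 arms changed 4- to 8-fold, with 4 unchanged arms called, and the time fit with the replicate block 27 of 191. Shares were tested by exact permutation in Python (scipy 1.17.1). RNAfold 2.7.2 folded the hairpin.

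Replicate numbers pair the libraries by time course: deviations from the group means correlated between all 15 pairs of time points (Pearson r 0.35 to 0.78 over 506 arms). No 2 libraries agreed within sampling noise (lowest chi-square per degree of freedom of 66 pairs, 30.5). The members, named arms and marker lists were chosen with earlier results of these data known. Named were the miR-140 arms, each start with at least 100 counts, the 10 leading tags, the 5 arms closest by Pearson r, miRNAs with a shared seed, and a list of miRNAs known for several starts. Alternatives were other scaling, no filter, tags of 20 to 24 nt, counts by the first 18 nt, DESeq2, the replicate block and each library left out.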

Additional observations from a re-analysis of the deposited data

Results flagged for a closer look

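Among 16 measures of miR-140 in each time course of 6 libraries, a Dixon test marked 10 of 32 groups in which 1 library lay far from the rest. Chance marks about 1 in 20 where groups are independent, which these are not. NT-1 accounted for 7 of them: its shares of 3p counts ending at position 66 (11.3%, others of its time course 67.3% to 76.6%), ending at position 65 (84.8%, others 15.1% to 25.8%), 20 nt long (88.0%, others 18.5% to 29.2%) and 18 or 19 nt long (2.33%, others 0.366% to 0.770%), its mean tag length (20.1 nt, others 20.7 to 20.9 nt), the mean end of tags from position 46 (65.1, others 65.75 to 65.95) and the share of tags with a substituted base (0.401%, others 5.64% to 7.95%). The tags counted there as substituted include the leading tag followed by AA (7174 counts over all libraries), in which the last bases may instead be added. Tags of 18 or 19 nt also stood apart in 6h-2 (0.679%, others 0.185% to 0.285%). The measures draw on the same tags, and those of end and length in NT-1 restate 1 another, so the number of marked groups overstates the excess over chance.

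The ratio of 3p to 5p counts was far above the rest in 3h-1 (8118, others 1696 to 3663) and 1h-2 (41753, others 1798 to 6834). Both rest on few 5p counts, 4 in 3h-1 and 1 in 1h-2.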

How the results depend on the processing

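The log2 changes of the 3p arm after ECS stayed uncalled under each alternative run, and some changed sign: at 1 h with the replicate block (-0.18), DESeq2 with the replicate block (-0.0947) and tags of 20 to 24 nt (-0.65), at 3 h with DESeq2 size factors (0.0659), no filter (0.0947) and DESeq2 (0.0659), and at 6 h with tags of 20 to 24 nt (-0.24). Leaving out 1 library gave -0.84 to 0.79 at 1 h, -1.004 to 0.29 at 3 h and -0.93 to 0.80 at 6 h. The replicate block changed no call of miR-140. DESeq2 called 1 arm at 0.5 h and 2 at 3 h, and with the block 2 and 5. For starts it called 3 at 3 h, and with the block 1 at 0.5 h, 6 at 3 h and 1 at 24 h. No filter called 2 starts at 3 h.

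Between the time courses, the 3p arm passed the threshold with total miRNA counts (-1.71), DESeq2 (-1.03), no time point covariate (-1.02), tags of 20 to 24 nt (-1.56) and without both untreated libraries (-1.25). Leave-one-out values ran from -1.25 to -0.78. The 5p arm lost its call with no filter (-1.60), tags of 20 to 24 nt (-1.71) and the first 18 nt (-1.14), and leave-one-out values ran from -1.96 to -1.35. Position 45 lost its call with total counts (1.30), tags of 20 to 24 nt (1.23) and without both untreated libraries (1.52), with leave-one-out values of 1.45 to 2.31. Position 46 (-1.31) and position 47 (-1.59) lost theirs with no filter, and leave-one-out values of position 46 ran from -1.82 to -1.42, with the call lost without either 1 h library or 3h-1. Arms called over all tested ranged from 115 to 184 and starts from 152 to 284 when 1 library was left out, the fewest without 1h-2 and 1h-1. The cause of these changes was not tested.

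The difference in 5p share changed sign with tags of 20 to 24 nt (0.000211 points) and with tags of at least 10 counts (0.00269 points), and the untreated difference at position 45 with the first 18 nt (0.348 points). The other alternatives of the shares kept direction and side of the threshold, apart from leave-one-out values of the untreated difference at positions 45 and 46, which lay on both sides of 0. DESeq2 with the block and leaving out both untreated libraries were chosen after seeing the data. Depth limits the 5p arm most, with 1 to 19 counts a library.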
